A study of Mus musculus with 1016 samples.

Results

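The clustered protocadherin genes lie in a single tandem array on mouse chromosome 18 and form the Pcdha, Pcdhb and Pcdhg families. Members were taken by symbol prefix and by position in the array (genome build GRCm38), a rule that uses no measured value. It gave 58 of the 51229 genes annotated on chromosomes 1 to 19, of which 57 are protein-coding and 1, Pcdhgb8, is a polymorphic pseudogene. The 14 Pcdha genes span 36930184 to 37187661, the 22 Pcdhb genes 37264938 to 37524479 and the 22 Pcdhg genes 37661793 to 37841873, all on the plus strand. The array covers 19 of the 49264 bins of 50 kb in the data, 6 under Pcdha, 1 between Pcdha and Pcdhb, 6 under Pcdhb, 2 between Pcdhb and Pcdhg and 4 under Pcdhg. A further 20 bins (1 Mb) on each side, called the upstream and the downstream flank by the direction of transcription, were described beside it.

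Protocadherins of these families are cell adhesion proteins of the cadherin superfamily, and they are best known from neurons, where each cell transcribes its own small set and reads its neighbours through them. In Pcdha and Pcdhg, each variable first exon has its own promoter and is spliced to constant exons at the end of the family, while each Pcdhb gene is a separate gene with no constant exons. CTCF and cohesin loop a chosen promoter to distant enhancers, and the promoters that are not chosen are kept silent by DNA methylation and heterochromatin. Replication timing (RT) is the order in which the parts of the genome are copied during S phase, with early copying known mainly from open and late copying from silent chromatin.

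Single-cell Repli-seq sequences the DNA of 1 cell in S phase and calls each bin as replicated or not. The crossed females (C57BL/6J x CBA) mated with DBA/2J males gave the embryos used as zygotes (20 to 26 h after injection of hCG, the hormone that sets off ovulation), at the 2-cell (32 to 40 h), 4-cell (50 to 56 h), 8-cell (66 to 72 h), 16-cell (77 to 80 h) and morula (90 to 96 h) stages, and as inner cell mass (ICM) of the blastocyst (96 to 104 h). Embryos of this cross were also made by in vitro fertilization (IVF zygotes, taken from 5.5 to under 11 h after insemination). Parthenotes, eggs of (C57BL/6J x CBA)F1 females activated with 10 mM strontium and carrying no paternal genome, were taken 5.5 to 12 h after activation. Maternal pronuclei, labelled (C57BL/6J x CBA)F1, and paternal pronuclei, labelled DBA/2J, were isolated at 21 to 25 h. Treated 2-cell embryos of the first cross received α-amanitin (0.1 mg per ml, an inhibitor of RNA polymerase II, 34 to 39 h) or DRB (100 μM, an inhibitor of transcription elongation, 34 to 40 h) from 17 h, or an injection of Kdm5b mRNA (2 μg per μl, for a demethylase of histone H3K4, 34 to 40 h) at 18 h after hCG. Both pronuclei of a zygote were processed, but the labels do not say which belong together. By the study's methods, pronuclei whose allele ratio went against their label were exchanged before analysis. Whether the labels used here already carry that exchange is not known, so each maternal or paternal value below is that of the nuclei so labelled.

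Of 733 cells with deposited states, 661 were used, from 17 paternal pronuclei to 70 ICM cells a group, and the used cells of a group spanned replication scores (percent of called bins replicated) from at most 29.6% to at least 81.8%. Chromosome 18 was masked in 1 16-cell, 1 morula and 2 α-amanitin cells, so 657 cells have states in the cluster. No 2 used cells had the same states: the closest pair shared 88.7% of their called bins. For each bin, the percent of cells with the replicated state was found in overlapping intervals of replication score, and the mean over these intervals, as a fraction, is its RT, from 0 (latest) to 1 (earliest). Each sample is 1 cell and the labels name no embryo or collection, so each group counts as 1 sample, no test between groups was made, and the 95% Clopper-Pearson intervals cover counting error only. The authors' running median over 15 bins (750 kb) and the segmentation of each cell make neighbouring bins alike, so the cluster is close to 1 observation per cell and its genes are not replicates. The 58 genes fall on 17 distinct sets of bins, and 20 of the 22 Pcdhb genes lie within 1 bin each. The authors divided each bin by its mean in the stage, so copies gained or lost in every cell of that stage, as through the strain, leave no trace.

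The cluster replicated later than both flanks around it at each stage from zygote to ICM. Mean RT over its 19 bins was lowest in 4-cell embryos, at 0.346. It was 0.469 in zygotes, 0.481 in 2-cell, 0.510 in 8-cell and 0.471 in 16-cell embryos, with 0.515 for morulae and 0.517 for the ICM. The median of all bins was higher at all 7 stages, between 0.455 (4-cell) and 0.565 (morula). The distance was small at some stages: 24.5% of all bins lay below the cluster mean at the 4-cell stage, and 35.1% (zygote) to 46.6% (8-cell) at the others. Both flanks were above that median at all 7 stages, from 0.552 downstream (2-cell) to 0.860 upstream (morula). The latest of all 59 bins lay inside the cluster at 7 of 7 stages, within a stretch from the middle of Pcdha to the middle of Pcdhb.

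**Figure D1:**
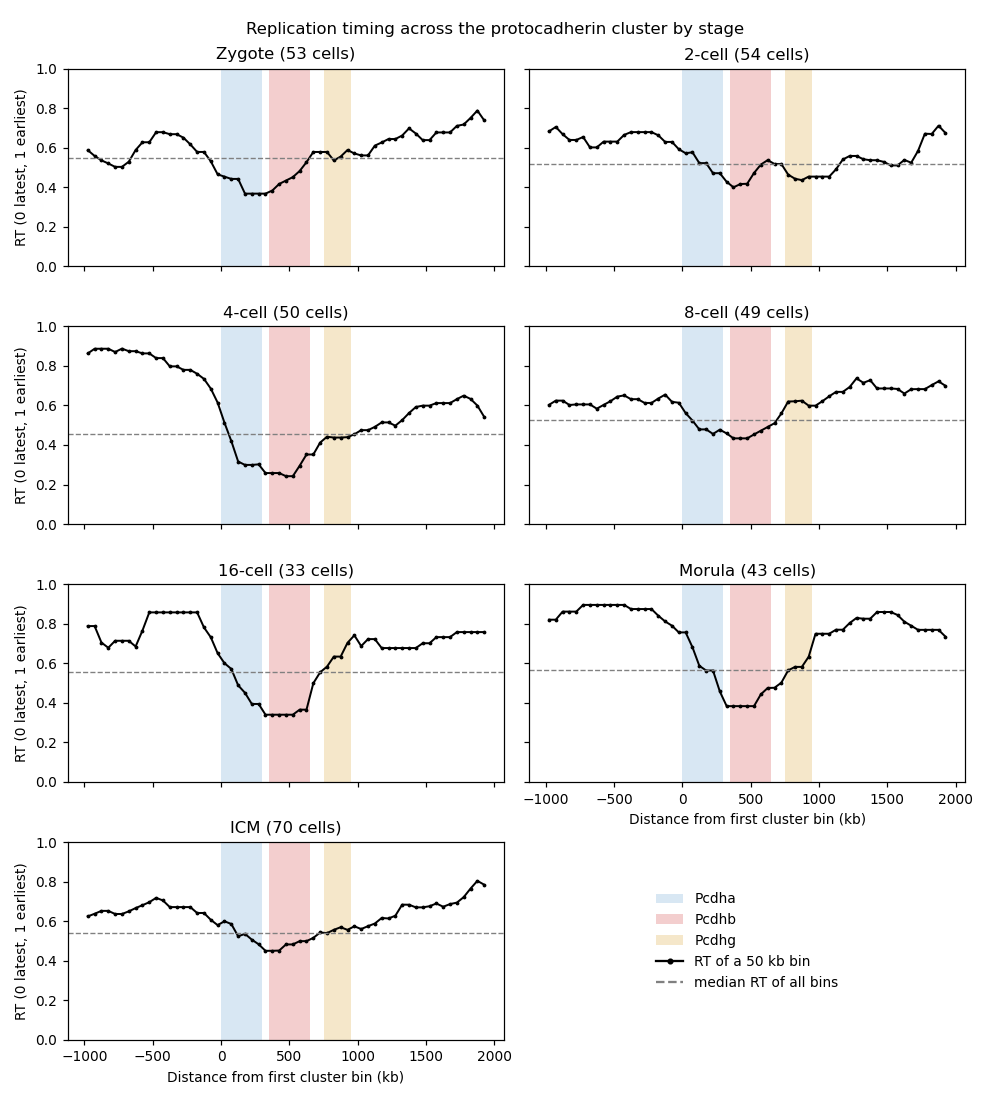
RT of each 50 kb bin (y axis, 0 latest to 1 earliest) against distance from the first cluster bin (x axis, kb) at 7 stages, with Pcdha, Pcdhb and Pcdhg shaded and the median of all bins dashed. The latest bin lies between the middle of Pcdha and the middle of Pcdhb at each stage, in 2-cell embryos with Pcdhg as late as Pcdhb (0.449 and 0.459), and the trough is deepest against its flanks at the 4-cell (lowest bin 0.242), 16-cell (0.340) and morula (0.383) stages.

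Counted cell by cell, the cluster was called replicated in a cell with over 50% of its called bins replicated. This held in 11 of 50 4-cell cells (22%, 95% interval 11.5 to 36%) and in 26 of 53 zygotes (49.1%, 35.1 to 63.2%). It held in 24 of 54 2-cell cells (44.4%), 23 of 49 8-cell cells (46.9%), 15 of 33 16-cell cells (45.5%), 24 of 43 morula cells (55.8%) and 38 of 70 ICM cells (54.3%). The 4-cell share is thus the lowest, its interval lies below those of morula and ICM cells and overlaps the others, and the intervals of the other 6 stages, which run from 28.1 to 70.9%, overlap one another. The 4-cell cells also had the lowest median replication score (40.2%, against 47.4 to 62.6% at the other stages). RT, which averages over score, was lowest there as well, as was the median RT of all bins (0.455), from which the cluster differed by -0.109. By band of score, the 4-cell share was the lowest only at 60 to 90% (3 of 8 cells). At 10 to under 40% it was 3 of 25, with 8-cell (1 of 16) and morula cells (1 of 10) lower. At 40 to under 60% it was 5 of 17, with 16-cell (2 of 14) and morula cells (2 of 9) lower.

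The Pcdhb genes, which encode the isoforms without constant exons, had the lowest mean RT of the 3 families at 5 of 7 stages. Their RT was 0.275 (4-cell), 0.348 (16-cell) and 0.409 (morula), and 0.448 to 0.477 at the other 4 stages. In zygotes Pcdha was lower (0.406 against 0.448), and in 2-cell embryos Pcdhg was lower by 0.0104. Over all 14 groups, Pcdhb was later than both other families in 8. The floor of the trough was not confined to Pcdhb. The 1 bin between Pcdha and Pcdhb, which holds no member, was later than the Pcdhb mean at each stage except the 8-cell stage. It was at 0.258 (4-cell), 0.340 (16-cell) and 0.383 (morula). Among all bins of the genome, 11.5% lay below the Pcdhb mean at the 4-cell stage and 28 to 36.4% did at the other stages, so Pcdhb was later than most of the genome without being among its latest regions. Pcdhb1, the first gene of the family, had RT 0.258, 0.340 and 0.383 at these 3 stages. Pcdhb22, the last, was earlier at each of them, with 0.352, 0.365 and 0.475. In the 4-cell profile the 2 bins from 37350001 to 37450000, in the middle of the family, were the latest, at 0.242. Each of these genes lies in 1 bin, and Pcdhb22 shares its bin and its values with Pcdhb20 and Pcdhb21.

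The Pcdha genes lay between the upstream flank and Pcdhb in RT at 6 of 7 stages, and in zygotes they held the floor of the trough, with the latest bin (37050001 to 37100000) at 0.367. Pcdha1, the first, spans all 6 Pcdha bins because its transcripts run to the constant exons at the family's end, and had RT 0.406 in zygotes, 0.522, 0.358, 0.496 and 0.483 in 2-cell, 4-cell, 8-cell and 16-cell embryos, 0.602 in morulae and 0.539 in the ICM. Pcdhac2, a C-type isoform at the far end of the family and its last gene, covers only the last 2 of these bins and was later at each stage, with 0.301, 0.394 and 0.511 in 4-cell embryos, 16-cell embryos and morulae. Pcdhac1, the C-type isoform before it, had 0.30, 0.413 and 0.528. All 14 Pcdha genes share their last bins, so the order of their values follows from where each gene starts. From the first to the last Pcdha bin, RT went from 0.513 to 0.302 in 4-cell embryos and from 0.756 to 0.458 in morulae.

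The Pcdhg genes, next to the downstream flank, were earlier than Pcdhb at 6 of 7 stages and formed part of the floor of the trough in 2-cell embryos. Pcdhga1, the first, had RT 0.564 at the zygote stage, 0.449 and 0.439 in 2-cell and 4-cell embryos, 0.616 and 0.639 in 8-cell and 16-cell embryos, 0.590 in morulae and 0.555 in the ICM. The C-type isoforms Pcdhgc3, Pcdhgc4 and Pcdhgc5, the last 3 genes of the array, share 1 bin, with RT 0.704 (16-cell) and 0.633 (morula), the highest of the family at both stages. The Pcdhg mean was above the median of all bins in zygotes, 8-cell and 16-cell embryos, morulae and the ICM, and the Pcdha mean in 2-cell embryos and morulae. The C-type genes of Pcdha and Pcdhg thus differed in RT: Pcdhac2 was later than Pcdhgc3 at each stage except the 2-cell stage, where their RT was 0.470 and 0.453.

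The nearest genes that are no members were earlier than Pcdhb upstream at all 7 stages and downstream at 6, the exception being 2-cell embryos, where Diaph1, Hdac3 and Rell2 were at 0.453 and Pcdhb at 0.459. Upstream, Hars and Hars2, which encode the histidyl-tRNA synthetases of the cytosol and the mitochondria, and Zmat2, a splicing factor gene, lie 130518 to 146979 bp from the first member and share RT 0.734 (4-cell) and 0.812 (morula). Downstream, Diaph1, which encodes a formin that builds actin filaments, lies 1728 bp past the last member and had 0.456 (4-cell) and 0.711 (morula). Hdac3, a histone deacetylase gene, and Rell2 had 0.475 and 0.750. Between Pcdhb and Pcdhg, Slc25a2, a carrier gene of the inner mitochondrial membrane, and Taf7, which encodes a subunit of the general transcription factor TFIID, shared RT 0.412 and 0.502, earlier than Pcdhb at both stages. The protein-coding entries Gm42416, Gm37013 and Gm37388 span nearly the whole array and had RT close to its mean (0.337 in 4-cell embryos against 0.346). The slope was steeper on the upstream side at the 4-cell stage, where the upstream flank was at 0.819 and the downstream flank at 0.560.

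**Figure D2:**
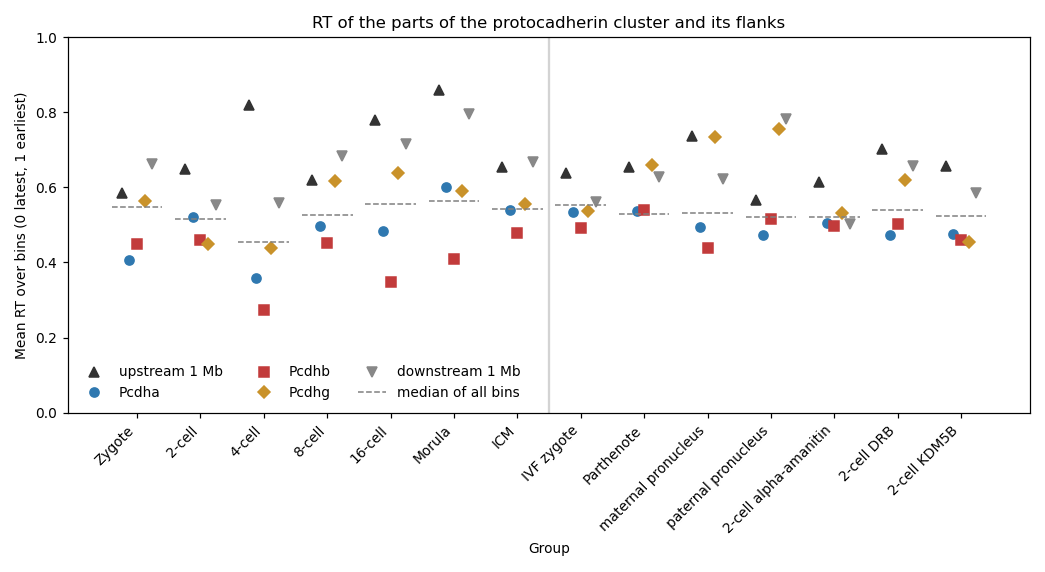
Mean RT (y axis) of the upstream flank, Pcdha, Pcdhb, Pcdhg and the downstream flank in each of 14 groups (x axis), with the median of all bins dashed. Pcdhb lies below both flanks in 14 of 14 groups, by the widest distance at the 4-cell, 16-cell and morula stages.

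The depth of the trough was taken as the mean RT of both flanks minus that of Pcdhb, a measure chosen after the profile had been seen. It was 0.415 (4-cell), 0.399 (16-cell) and 0.419 (morula), past 0.2 in each. It was 0.141 in 2-cell and 0.198 in 8-cell embryos, 0.175 in zygotes and 0.184 in the ICM. Places anywhere in the genome with the same layout of bins gave the background. Of these, 7.74% (4-cell), 12.1% (16-cell) and 14.4% (morula) reached 0.2, and 5.19% (zygote), 4.72% (2-cell), 6.1% (8-cell) and 4.76% (ICM) did so at the other stages. A depth as large as that of the cluster was reached by 0.499% of places in the 4-cell, 0.782% in the 16-cell and 1.3% in the morula profile, against 10.9% in the 2-cell profile and 6.27 to 7.47% in the other 3. The places overlap, so these shares rank the cluster and are no test. Among ICM cells, the 33 taken at 96 to 100 h had a depth of 0.259 and the 37 taken later, up to 104 h, of 0.128, and the later cells are not in the table of reads.

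Between neighbouring stages, few of the 19 bins moved by 0.2 or more. From the 2-cell to the 4-cell stage 4 bins became later, 2 under Pcdha and 2 under Pcdhb, where 9.11% of all bins did, and none became earlier, where 6.24% did. The mean of the cluster fell by 0.135 in that step, while 9 of 20 bins of the upstream flank became earlier by 0.2 or more. By gene, 11 of 58 members became later and none earlier, against 3.62% later and 16.8% earlier among all protein-coding genes, whose median moved by 0.0600. From the 4-cell to the 8-cell stage 2 bins became earlier (7.67% of all bins) and none later (3.39%), with a change in the mean of 0.164, and 5 of 58 members became earlier (6.15% of protein-coding genes) and none later (5.19%). Over the raw share of cells in place of RT, the differences for these steps were -0.200 and 0.225. No bin passed 0.2 in the other 4 steps: zygote to 2-cell (2.72% of all bins earlier, 4.83% later), 8-cell to 16-cell (5.62% and 2.98%), 16-cell to morula (1.98% and 3.46%) and morula to ICM (13.4% and 14%). No member did in these steps either, where 0.736% of protein-coding genes became earlier and 3.34% later from zygote to 2-cell, 9.83% and 0.634% from 8-cell to 16-cell, and 3.33% and 0.931% from 16-cell to morula.

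From the 2-cell stage to the morula, when 47.6% of all protein-coding genes became earlier by 0.2 or more and 3.41% later, 0 of 58 members passed 0.2 in either direction. The median change over members was 0.0586 and that over all protein-coding genes 0.192. By bin, 24% of all bins became earlier and 21% later, and 0 of the 19 cluster bins did either, whereas 9 of 20 upstream and 15 of 20 downstream bins became earlier. The mean of Pcdhb went from 0.459 to 0.409 and that of Pcdhg from 0.449 to 0.590. The trough in morulae thus came with earlier flanks and a change of -0.0504 at Pcdhb. From morula to ICM, 0 of 58 members passed 0.2 where 33.8% of protein-coding genes became later and 2.76% earlier, while 11 of 20 upstream bins became later. Since the members sit in 1 locus, these counts describe a single region.

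The share of cells with Pcdhb replicated rose late in S phase. Over the 7 stages, Pcdhb was replicated in 16 of 101 cells with a replication score of 10 to under 40% (15.8%), in 40 of 126 with 40 to under 60% (31.7%) and in 93 of 125 with 60 to 90% (74.4%). The upstream flank was replicated in 59.4%, 66.7% and 92.8% of the same cells, and the downstream flank in 46.5%, 66.7% and 85.6%. In morula cells the step was sharp: Pcdhb was replicated in 0 of 10 cells at 10 to under 40% (95% interval up to 30.8%), in 1 of 9 at 40 to under 60% and in 21 of 24 at 60 to 90%. The 16-cell cells went from 1 of 14 in the middle band to 11 of 14 in the highest, and 4-cell cells from 2 of 25 in the lowest to 3 of 8 in the highest. In zygotes the shares were flatter, with 4 of 12, 6 of 17 and 15 of 24 cells, and in 2-cell embryos they were 5 of 16, 11 of 26 and 7 of 12.

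**Figure D3:**
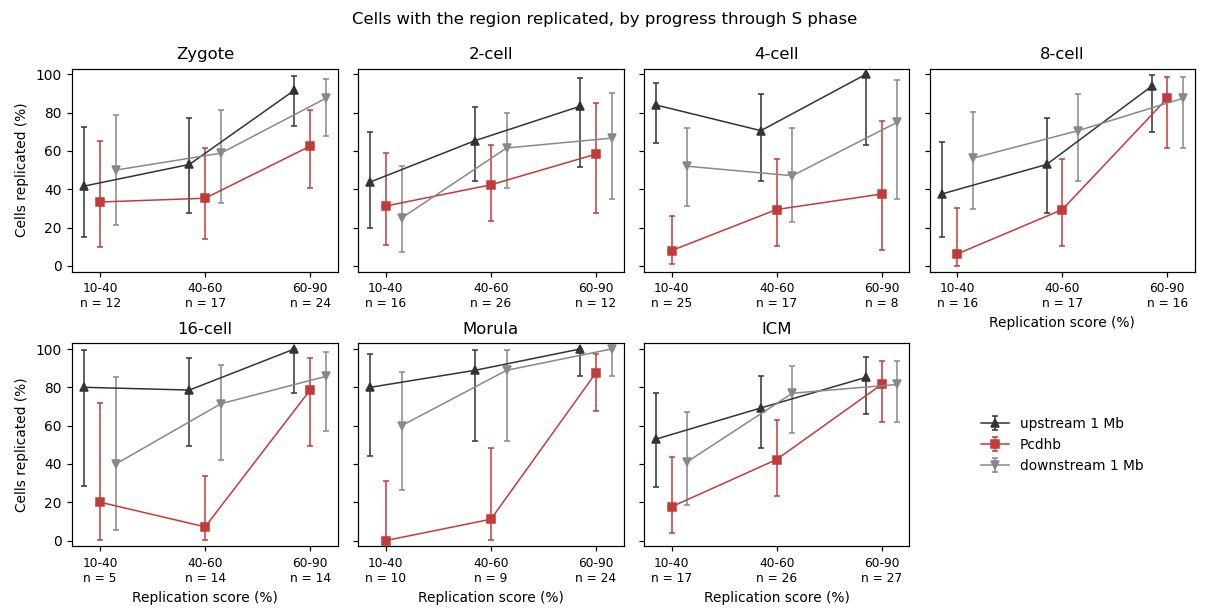
Percent of cells with Pcdhb and each flank replicated (y axis) in 3 bands of replication score (x axis, %) at 7 stages, with exact 95% binomial intervals and the number of cells under each band. Below a score of 60% Pcdhb lies under both flanks at each stage, except under 40% in 2-cell cells, where the downstream flank is lower (4 of 16 cells against 5), and its intervals are wide where a band holds few cells.

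Within single cells, where score and depth are the same for both regions, Pcdhb replicated before a flank less often than after it. Of 657 cells, 213 had the upstream flank replicated and Pcdhb not, 40 had the reverse, 270 had both replicated and 134 neither. For the downstream flank the counts were 185 and 63, with the flank ahead in 14 of 14 groups. The margin was small in some, as with 11 and 9 in IVF zygotes and 7 and 5 with α-amanitin. At the 4-cell stage 31 of 50 cells had only the upstream flank and 0 only Pcdhb. Among 33 16-cell cells these counts were 16 and 0, and among 43 morula cells 18 and 0, whereas zygotes had 15 and 4 of 53 and 2-cell cells 16 and 5 of 54. Inside the cluster, 106 cells had Pcdhg and not Pcdhb replicated and 33 the reverse, and for Pcdha and Pcdhb the counts were 49 and 29. Pcdhg was thus ahead of Pcdhb in 12 of 14 groups and Pcdha ahead of Pcdhb in 10 of 14.

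**Figure D4:**
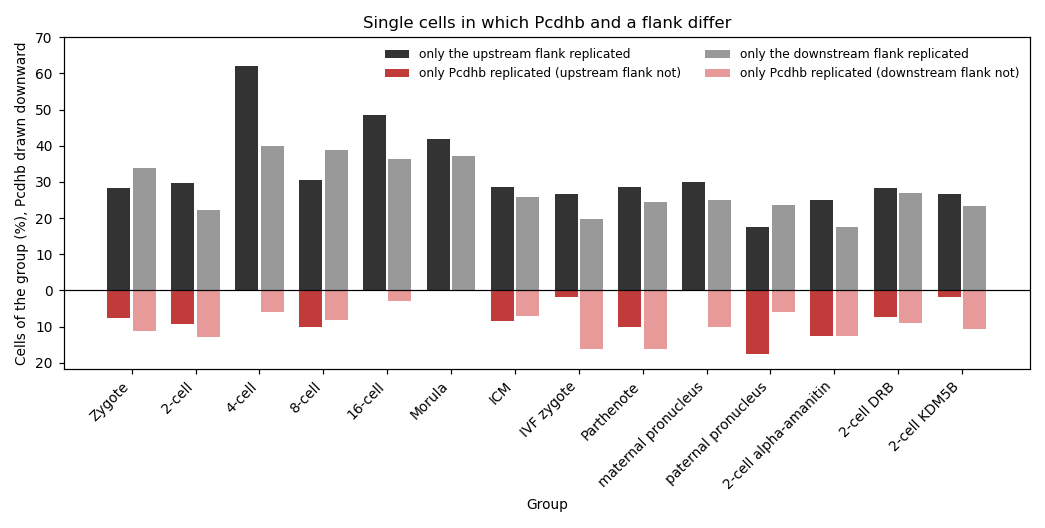
Percent of cells of each of 14 groups (x axis) in which a flank was replicated and Pcdhb not (upward bars) or Pcdhb was and the flank not (downward bars), for the upstream and downstream flank. The upward bars are the taller ones except for the paternal pronuclei upstream, with 3 cells each way, and downward bars are absent for the upstream flank at the 4-cell, 16-cell and morula stages and in maternal pronuclei.

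Changes of state along the array were counted in each cell, as a description, since the authors' smoothing and segmentation limit their number in any stretch of 19 bins. Of the 657 cells, 399 (60.7%) had all 19 bins in 1 state, 196 had 1 change of state along the array and 62 had 2 changes, and none had more. Of the cells with 2 changes, 53 had replicated ends around a centre that had not replicated and 9 the opposite. All 8 such morula cells and all 5 such 16-cell cells had replicated ends. Cells with 1 change were replicated at the Pcdha end in 96 cases and at the Pcdhg end in 100. Over all cells and family by family, 67 had Pcdha and not Pcdhg replicated and 120 the reverse, with Pcdha the more frequent in 2 of 14 groups. Replicated Pcdha and Pcdhg ends were seen in 13 and 7 such 2-cell cells and in 7 and 13 zygotes. A running median over 15 bins removes blocks of less than 8 bins, more than any 1 family covers, so a block of 1 family alone cannot be resolved.

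The share of cells with the flanks replicated differed between collection hours of a stage. In the 11 8-cell cells of 72 h the flanks as a whole were replicated in 2 cells and Pcdhb in 3, against 11 and 5 of the 12 cells of 67 h and 11 and 10 of the 17 cells of 69 h. In the 5 16-cell cells of 77 h each was replicated in 1 cell, against 25 and 12 of the 28 cells of 80 h. The median replication score was 45.7% at 72 h, 48.6% at 67 h and 59.8% at 69 h. It was 34.9% at 77 h against 65.3% at 80 h, so the 16-cell hours also differ in the progress of S phase. Among other 8-cell cells, the flanks were replicated in 3 of 3 cells of 66 h and 5 of 6 of 68 h. Both of these hours had a lower median score than 72 h. Without the cells of 72 h and 77 h the depth of the trough was 0.252 at the 8-cell stage, past 0.2, and 0.568 at the 16-cell stage. The mean RT of the cluster was then 0.514 and 0.424. The labels do not say whether an hour was a separate collection, and the part of hour or of S-phase progress in these values was not tested.

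In IVF zygotes the cluster was at 0.520 and Pcdhb at 0.491, against 0.469 and 0.448 in zygotes from mating. Of its bins 0 of 19 differed by 0.2, where 7.06% of all bins were earlier and 4.32% later in IVF zygotes. Pcdha was higher in IVF zygotes by 0.129, and the downstream flank lower by 0.101, so the trough was shallower, at 0.109. A depth as large was reached by 15.6% of places in IVF zygotes, and 4.38% reached 0.2. The median difference over members was -0.00689, so it differs in sign from that of the mean over bins. In parthenotes, which carry maternal genomes only, the cluster was at 0.575, above the median of all bins of 0.530, as was Pcdhb at 0.539. Against IVF zygotes 0 of 19 bins passed 0.2 (1.93% of all bins earlier and 4.16% later), and of the 3 families Pcdhg differed most, at 0.659 against 0.538, next to 0.677 against 0.531 in the 2 bins between Pcdhb and Pcdhg. The trough of parthenotes, 0.103 deep over all hours, was 0.000623 deep in the 29 cells of the hours that IVF zygotes also have. In parthenotes over all hours, 15.1% of places were as deep as the cluster and 3.4% reached 0.2. In the last of these shared hours all 8 parthenotes had Pcdhb replicated and 5 of the 8 had the flanks replicated.

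The pronuclei differed more in the flanks than in the cluster. The whole array had RT 0.539 in the 20 maternal and 0.575 in the 17 paternal pronuclei, and Pcdhg 0.733 and 0.755. Of its bins 1 of 19, under Pcdhb, was later in maternal pronuclei by 0.2 or more, where 10.4% of all bins were, and none was earlier, where 12.7% were. By gene, 3 of 58 members were later and none earlier, against 14.3% and 7.07% of protein-coding genes. The upstream flank was earlier in maternal pronuclei (0.738 against 0.567), with 13 of 20 bins past 0.2, and the downstream flank later (0.621 against 0.783), with 9 of 20 bins. The trough was 0.242 deep in maternal pronuclei, a depth that 4.39% of all places reached, and 7.73% reached 0.2. In paternal pronuclei it was 0.160 deep, a depth that 11.2% of places reached, and 6.64% reached 0.2. The latest of the 59 bins lay in the upstream flank in paternal pronuclei, the only one of 14 groups where it was outside the cluster. Parental origin and strain cannot be told apart here, and with 17 and 20 nuclei the interval of a share is wide, as in the 38.3 to 85.8% for the 64.7% of paternal pronuclei with the cluster replicated. The filter on reads goes with them as well: it was applied to the maternal pronuclei, and no paternal one is in the table of reads.

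**Figure D5:**
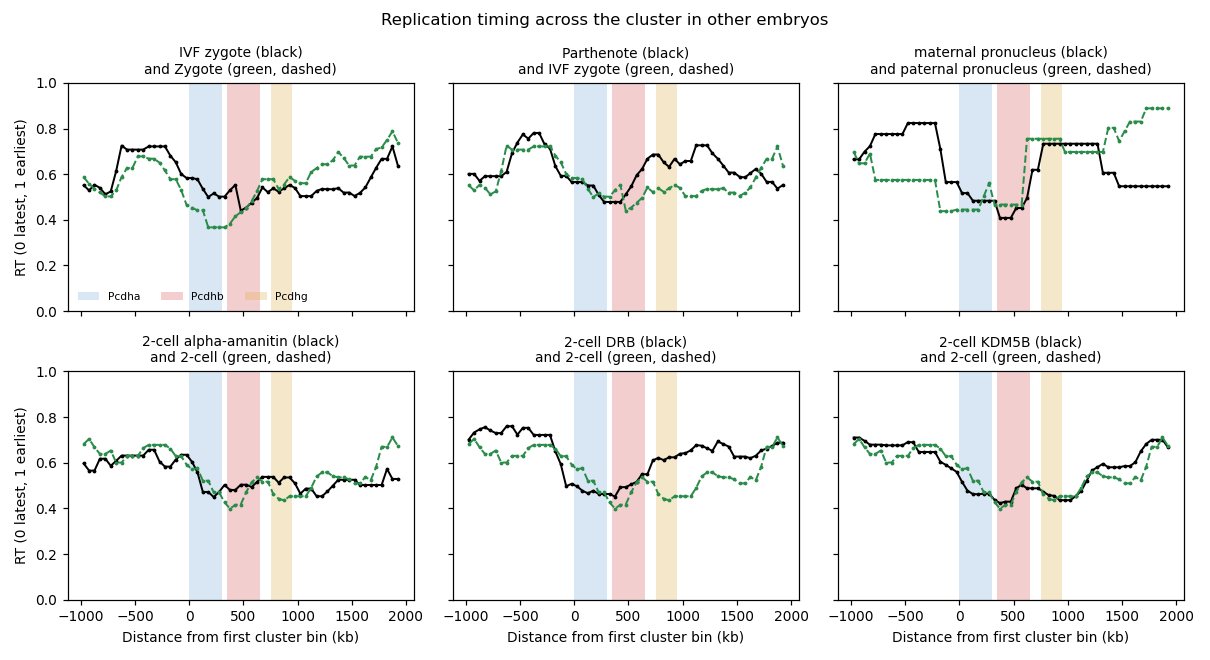
RT of each 50 kb bin (y axis) against distance from the first cluster bin (x axis, kb) in 6 pairs of groups, 1 group in black and its comparison in dashed green, with Pcdha, Pcdhb and Pcdhg shaded. In the pronuclei the lines cross from the upstream to the downstream flank, and in treated 2-cell embryos the Pcdhg bins of DRB embryos lie above those of untreated embryos (0.620 against 0.449).

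Treated 2-cell embryos were each set against the same 54 untreated 2-cell cells, so the 3 comparisons are not independent of one another. No cluster bin passed 0.2 in any of them. With α-amanitin 4.74% of all bins were earlier and 3.9% later, with DRB 4.5% and 1.31%, and with KDM5B 1.71% and 1.17%. The cluster was at 0.511 with α-amanitin, 0.524 with DRB and 0.466 with KDM5B, against 0.481 untreated. Pcdhb was at 0.497, 0.502 and 0.460, against 0.459. Pcdhg moved most, to 0.620 with DRB, a difference of 0.172 that 92.4% of all bins lay below, and to 0.531 with α-amanitin, while it was at 0.456 with KDM5B. The trough was 0.0625 deep with α-amanitin, as the downstream flank was at 0.504, next to Pcdhb, and 0.178 and 0.161 deep with DRB and KDM5B. Of all places, 24.1% with α-amanitin, 8.25% with DRB and 6.74% with KDM5B were as deep as the cluster, and 3.12%, 6.19% and 3.62% reached 0.2. Over the hours that both groups have, the cluster differed by 0.0854 with α-amanitin, 0.0577 with DRB and 0.0798 with KDM5B. The last has the opposite sign of the -0.0154 over all hours. In the hours shared with KDM5B the cluster was at 0.310 in 25 untreated cells, against 0.481 over all hours, and at 0.390 in 35 KDM5B cells. In the hours shared with α-amanitin and DRB, untreated cells were at 0.468 and 0.461. The hours shared with KDM5B thus moved the untreated value by more than any of these differences in the cluster. Those shared with α-amanitin and DRB moved it by less than the differences found with these inhibitors.

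Of the 10 protocadherin genes outside the cluster, 8 lie elsewhere in the genome and 2, Pcdh1 and Pcdh12, in the downstream flank of the array. Their median RT was 0.348 (zygote), 0.505 (2-cell), 0.422 (4-cell) and 0.134 (morula), against member medians of 0.482, 0.453, 0.327 and 0.571. Between 2-cell embryos and morulae 7 of these 10 became later and 2, Pcdh1 and Pcdh12, earlier by 0.2 or more, as did 15 of the 20 bins of that flank. Of all protein-coding genes 3.41% became later and 47.6% earlier between these stages. Pcdh10, Pcdh17, Pcdh20, Pcdh18, Pcdh9, Pcdh7 and Pcdh15, which lie in gene-poor regions, had RT between 0.0502 and 0.218 in morulae. Pcdh1 and Pcdh12 were at 0.828 and 0.826, and Pcdh8 was at 0.723. Olfactory receptor genes, the other large family from which each neuron makes a choice, had a median of 0.203 (4-cell) and 0.238 (morula) over the 1112 of 1128 genes with a value, later than the protocadherins at both. The 39 Hox genes, also in tandem arrays, were at 0.606 and 0.602.

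Genes whose products act on promoter choice or silencing in the cluster replicated early. The 10 of them had a median RT of 0.717 (4-cell) and 0.824 (morula), against 0.578 and 0.734 for all protein-coding genes. Ctcf, which encodes the insulator protein, had 0.872 and 0.888, and the cohesin genes Rad21, Smc3 and Stag1 0.784, 0.709 and 0.852 in morulae. The cohesin loader gene Nipbl was at 0.877 and Wapl, whose product unloads cohesin, at 0.829. Of the silencing genes, the H3K9 methyltransferase gene Setdb1 was at 0.846, Smchd1 at 0.802, Wiz at 0.818 and the DNA methyltransferase gene Dnmt3b at 0.765. Dnmt3b went from 0.464 in 2-cell to 0.727 in 4-cell embryos, the only one of the 10 to become earlier by 0.2 or more in that step, where 16.8% of all protein-coding genes and 0 of the 58 cluster members did.

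In base composition the late part of the array was close to the median of all bins but below its flanks. The Pcdhb bins held 40.3% G and C on average and the Pcdha bins 40%, against a median of 41.4% over all bins, and 39.8% of all bins held less than Pcdhb. The Pcdhg bins held 45.1%, the upstream flank 44.9% and the downstream flank 46.4%, and 81.4% of all bins held less than the flanks on average. The flanks thus held more G and C than Pcdha and Pcdhb, and the part of base composition in the trough was not tested. No bin of the cluster or its flanks held unknown bases in the reference.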

How the data were processed

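The authors deposited, for each cell, a binary replication state per 50 kb bin of GRCm38 (mm10), coded 1, 0 or missing, a kind of value other than counts or ratios. The submitters' processing notes name Bowtie2 2.3.5, SAMtools 1.9 and bedtools 2.29.0, used to align reads, keep those of mapping quality 20 or more and count them in bins. The authors then scaled counts within each cell and within each bin of a stage, masked extreme bins, applied a running median (15 bins), segmented the profile and split it into 2 states. None of this was repeated. Depth per cell enters only through the authors' table of reads: cells listed there were kept with at least 750000 mapped reads and 219 used cells that are not listed were kept. The unlisted cells are all those used of the paternal pronuclei, the α-amanitin, DRB and KDM5B groups and the later ICM cells. Of 1016 labelled samples, 283 without a column of states were not analysed here.

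Cells with a replication score of 10 to 90% were used. RT is the mean over 16 intervals of score, 35 points wide and 4.33 points apart, of the share of cells replicated. A gene takes the mean of the bins it overlaps in the GENCODE annotation of GRCm38. A difference of 0.2 or more was called. The members, lists and measures were chosen with earlier results of these data known. Named genes are the first and last of each family, the C-type genes, the 3 nearest protein-coding genes on each side and those inside, and lists of other protocadherins and of regulators. Hox and olfactory receptor genes were taken by symbol. Alternatives covered the cells kept, the interval width, the raw share, the bins averaged, the score without chromosome 18, left-out hours and shared hours. Python 3.11.15, NumPy 2.4.6, pandas 2.3.3, SciPy 1.17.1, Matplotlib 3.10.9 and pysam 0.24.0 were used. The calculation of RT and of its differences between groups was tested on simulated data, and the other steps were not.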

Additional observations from a re-analysis of the deposited data

How the results depend on the processing

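No paired analysis was possible because no test was made and the labels name no embryo or collection, also for the pronuclei, whose numbers are not said to mark a zygote. Alternatives were set against the width of the counting interval of the share of cells with the cluster replicated. This was also done for RT values, which have no counting interval of their own. That interval is wide, so lying within it is a weak check. Cluster RT shifted by -0.0629 to 0.101 with the raw share and by -0.108 to 0.00307 with the median over bins. The shifts leave out the restriction to shared hours. Of 244 alternative values, 237 lay within that interval. The other 7 came from requiring all called bins of the cluster to be replicated in place of over 50%, which lowered the share of cells to 32.1% in zygotes, 29.6% at the 2-cell stage, 28 of 70 cells (40%) in the ICM, 39.3% in IVF zygotes, 44.9% in parthenotes, 35% with α-amanitin and 32.1% with KDM5B. Such a cell must be free of the partial replication seen in the cluster. Of 86 alternative values of a difference in the mean RT of the cluster, 12 had the opposite sign, in 8 of the 13 differences, all below 0.2 and at most 0.0431 in size as reported, so their direction depends on the setting. The depth of the trough was 0.0555 to 0.568 in 58 alternatives chosen after the data were seen. Those leave out the restriction to shared hours, under which it was 0.000623 in parthenotes. In paternal pronuclei it was 0.0676 with the raw share and 0.219 with intervals 25 points wide.

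The number of cells sets the precision: with 33 to 70 cells at a stage the interval of a share is about 24 to 36 points wide. It covers counting error only, so it sets no limit of detection between stages, and small differences cannot be read from the shares alone.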
